A study of Homo sapiens with 12 samples.

Results

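Glutathione, the main thiol of the cell, is built and broken down by a small set of enzymes, and 9 of their genes were followed here through the loss of the mitochondrial folate enzyme MTHFD2. They were GCLC, GCLM, GSS and GSR for synthesis and reduction, and CHAC1, CHAC2, GGCT, GGT1 and DPEP1 for breakdown. The 9 genes were taken from a table of 60648 genes, and all 9 were among the 18289 genes with enough counts to be tested. GCLC, GCLM, GSS, GSR, CHAC2, GGCT and GGT1 were listed for what their enzymes do. CHAC1 and DPEP1 were listed with their measured differences in these libraries already known, so their values are given below as a description, with standard errors and without p-values.

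The cells were HCT116, an established human colon carcinoma line. There were 4 groups of 3 biological replicates, all maintained in DMEM with fetal bovine serum. MTHFD2-WT cells were harvested at the initial time point and at the final time point after 2 months in culture. MTHFD2 knock-out cells, made with CRISPR-Cas9, were harvested just after the knock-out was made (initial) and after 2 months in culture (final). All knock-out (KO) libraries come from 1 isolated clone, so they are replicates of that clone, and the effect of the lost gene and a property of the clone cannot be told apart. The comparisons were KO against wild type (WT) at each harvest, final against initial harvest within each genotype, and the interaction, which is the KO-against-WT difference at the final harvest minus that at the initial harvest.

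Glutathione is made in the cytosol in a pair of steps. Glutamate-cysteine ligase, formed by the catalytic subunit GCLC and the modifier subunit GCLM, joins glutamate to cysteine, and glutathione synthetase (GSS) adds glycine. Glutathione reductase (GSR) returns oxidised glutathione to its reduced form with NADPH. Inside the cell CHAC1 and CHAC2 split reduced glutathione into pyroglutamate and cysteinylglycine, and GGCT acts on other gamma-glutamyl peptides. At the cell surface the gamma-glutamyltransferase GGT1 removes the gamma-glutamyl group of exported glutathione, and DPEP1, a membrane dipeptidase, cleaves the cysteinylglycine that remains. CHAC1 is a known target of the stress-induced transcription factor ATF4, and GCLC and GCLM are known targets of the oxidative stress factor NRF2.

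The sequences shown first are those around the motif that ATF4 bound to a C/EBP partner is known to use, TGATGNAA, in CHAC1 and in genes of the ATF4 axis and of amino acid transport whose values are described below. They were read from RefSeq promoter windows of 300 bases (250 before to 50 after an annotated start, GRCh38.p14), which held 6 of the 9 genes (CHAC1, CHAC2, DPEP1, GCLC, GCLM and GGT1). Both strands were searched, and capitals mark the match. Among the 6, CHAC1 was the one with a match, in the C form TGATGCAA on the minus strand of the gene. The match begins 209 bases before an internal annotated start and lies inside the gene's interval (40952962 to 40956512). Of all 35116 windows, 3.62% held TGATGNAA and 0.866% held TGATGCAA. The same C form stood in CEBPG, SLC1A5 and SLC1A4, and ASNS and ATF3 held other forms. The SLC1A4 site also lies inside the interval of its gene (64988477 to 65023865), and another window of SLC1A5 lies further upstream. Each site is written 5′ to 3′ on the strand of its gene.
CHAC1, chr15:40953252-40953279, plus strand: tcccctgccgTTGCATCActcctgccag
CEBPG, chr19:33374061-33374088, plus strand: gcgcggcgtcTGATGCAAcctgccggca
SLC1A5, chr19:46784894-46784921, minus strand: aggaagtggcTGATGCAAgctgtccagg
SLC1A4, chr2:64989382-64989409, plus strand: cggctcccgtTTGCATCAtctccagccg
ASNS, chr7:97872459-97872486, minus strand: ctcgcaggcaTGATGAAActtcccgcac
ATF3, chr1:212565206-212565233, plus strand: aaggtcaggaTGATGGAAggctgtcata
GPX8, whose values are also given below, has a match that begins 189 bases before its start and is not shown. Matches in SLC3A2, GSTCD, SLC25A11 and, in the C form, GPX5, all of lists described below, are not shown either. No match was found in the windows of TRIB3, nor was any found for DDIT4, SLC7A11 or SLC1A1. These genes are described below and were also lower in KO at both harvests. A match is a stretch of letters and shows no binding in these cells.

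The core of the antioxidant response element used by NRF2, TGACNNNGC, was also searched on both strands. It was in 13.3% of all windows. It was found in the window of GCLM, in 2 of the 4 windows of DPEP1 and in 1 of the 2 windows of GGT1, and not in the windows given for GCLC, CHAC1 and CHAC2. The GCLM site begins 34 bases before the start and is shown because GCLM is set against GCLC below.
GCLM, chr1:93909446-93909474, minus strand: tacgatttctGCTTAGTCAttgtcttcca

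The 12 libraries were close in depth, from 38597809 to 40017561 counts, and 27536 to 29015 genes had a count. Levels are given as TMM-scaled CPM, a count relative to the adjusted total of its library. MTHFD2 checked the labels: its transcript was at 375 to 457 CPM in the initial WT, 319 to 379 in the final WT, 128 to 146 in the initial KO and 123 to 155 in the final KO, so the 6 KO libraries lay below the 6 WT libraries and kept some transcript. Of 10 colon epithelial markers, 7 were at 1 CPM or more in each group, among them the keratins KRT8, KRT18 and KRT19, while VIL1, CDX1 and LGALS4 were near 0. Their summed level was 3074 to 3721 CPM in the initial WT and 3474 to 3830 in the final WT, against 2854 to 3047 in the initial KO and 2546 to 2928 in the final KO. The sum of 8 fibroblast and endothelial markers, nearly all from COL1A1, was 58.5 to 80.7 CPM in WT and 38.8 to 60.9 in KO, with DCN at 0 in all libraries. Immune markers summed to 0.659 to 2.37 CPM, with PTPRC at 2 counts or fewer, and erythroid markers to 0.148 CPM or less. The part of these marker shifts in the results below was not tested. In bulk RNA, fewer cells with a transcript and less transcript per cell cannot be told apart.

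CHAC1 (ENSG00000128965.13, hg38 chromosome 15, 40952962 to 40956512, plus strand), the stress-induced glutathione cyclotransferase, was the most reduced of the intracellular enzymes in the KO. The initial WT libraries had 33.1, 53.4 and 42.1 CPM and the initial KO libraries 5.90, 6.24 and 6.97 CPM. The final WT libraries had 21.6, 24.0 and 24.7 CPM and the final KO libraries 5.81, 4.67 and 5.95 CPM. The groups of each genotype were far apart at both harvests. The lowest WT library was above the highest KO library by a wide margin, while the initial and final KO ranges overlapped. Ranges were apart downwards, KO against WT, for 18.4% (initial) and 17.2% (final) of all genes.

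The log2 fold change of CHAC1, KO against WT, was -2.75 (SE 0.153) at the initial harvest, which is 6.73-fold lower. The final difference was -2.10 (SE 0.154), or 4.27-fold lower. Within WT, CHAC1 was 1.83-fold lower at the final than at the initial harvest (log2 fold change -0.87, SE 0.140). Within KO the same difference was -0.22 (SE 0.161). The interaction was 0.65 (SE 0.213), so the gap between the genotypes was narrower at the final harvest, and the WT level moved more than the KO level.

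CHAC2 (ENSG00000143942.5, chromosome 2, 53767804 to 53775196, plus strand), the constitutive paralog that carries out the same reaction more slowly, did not follow CHAC1. It had 5.49, 7.29 and 5.51 CPM in the initial WT, 7.95, 8.47 and 10.2 in the final WT, 7.31, 8.09 and 9.21 in the initial KO, and 9.63, 6.76 and 8.34 in the final KO. The initial WT was the lowest of the 4 groups. In WT the transcript rose with culture by 0.54 on the log2 scale (SE 0.154, edgeR adjusted p = 0.0465), with all 3 final libraries above all 3 initial ones, a separation also seen upwards for 10.8% of all genes. KO against WT at the initial harvest gave 0.43 (SE 0.154, edgeR adjusted p = 0.0624), with ranges that did not overlap but a p that missed the threshold. Ranges were apart upwards in this comparison for 17.1% of all genes. At the final harvest the difference was -0.11 (edgeR adjusted p = 0.699, 95% interval -0.40 to 0.19), and between harvests in KO it was 0.01 (adjusted p = 0.988).

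The CHAC2 rise in WT was near the threshold. The adjusted p was above 0.05 without WT initial replicate 1 (0.117) or 3 (0.181), without WT final replicate 2 (0.0991) or 3 (0.220), without KO initial replicate 1 (0.0562), 2 (0.0709) or 3 (0.0576), and without KO final replicate 3 (0.0596). The initial KO-against-WT difference passed without WT initial replicate 2 (adjusted p = 0.0147) or KO final replicate 2 (0.0429), in DESeq2 (0.0425) and without the filter on low counts (0.0199).

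**Figure D1:**
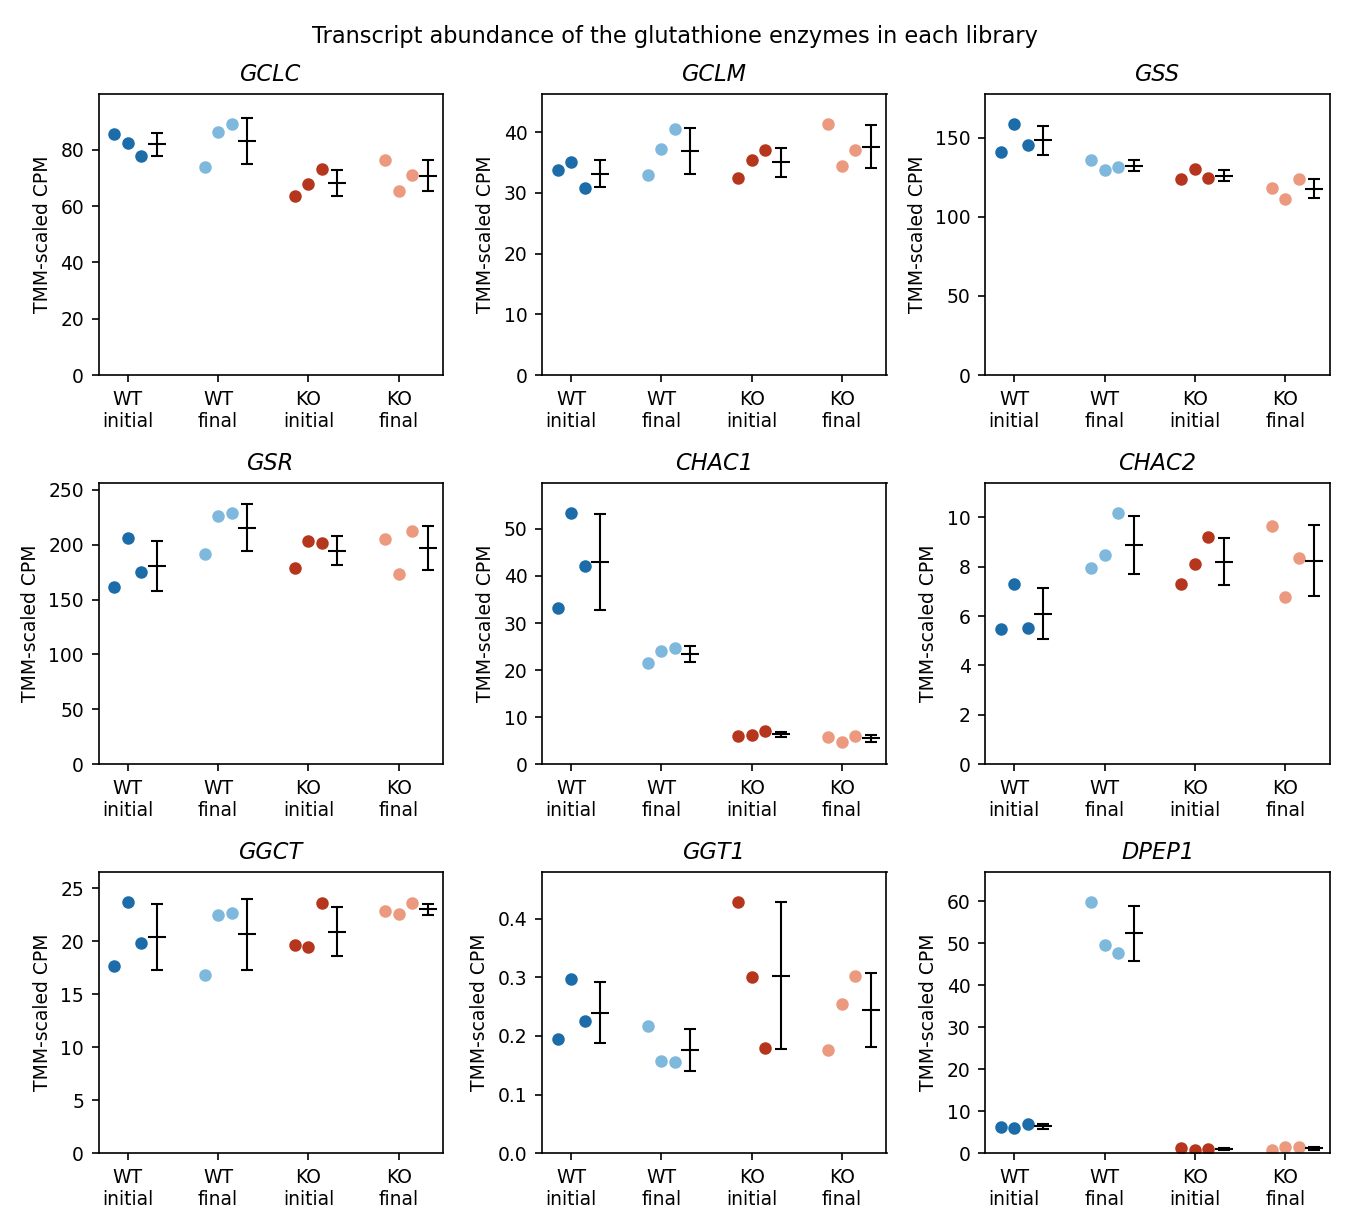
Level of each of the 9 genes in TMM-scaled CPM (y axis, from 0) in the 4 groups (x axis), with 1 point per library and the mean ± SD (n = 3) as a black bar. CHAC1 falls into a high WT and a low KO level, DPEP1 stands at 47.8 to 59.9 CPM in the final WT and at 6.91 or less elsewhere, and the group means of the other 7 genes lie closer together.

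Because CHAC1 and CHAC2 catalyse the same reaction, their levels were set against each other in each library. For levels between genes, counts were divided by the gene length in the deposited table and scaled to a common library total (TPM). This length (for instance 6166 bases for GSS and 3602 for GSR) may differ from that of the transcripts expressed. Levels set between genes are therefore approximate. The ratio of CHAC1 to CHAC2 in TPM was 3.84, 4.68 and 4.88 in the initial WT and 1.73, 1.81 and 1.55 in the final WT. In KO it was 0.515, 0.492 and 0.483 at the initial harvest and 0.385, 0.441 and 0.456 at the final harvest. Per length, CHAC1 was thus the more abundant of the pair in all 6 WT libraries and the less abundant in all 6 KO libraries. This ratio was chosen after its values were seen and was not tested.

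The 3 genes whose pattern over the 12 libraries was closest to that of CHAC1 were KIAA0040, TBL1X and LURAP1L, searched among the 12501 genes whose log2 CPM averaged 1 or more. Likeness was the root mean square difference of log2 CPM after centring each gene on its own mean, and was 0.255, 0.275 and 0.308. KIAA0040 had 75.5, 82.4 and 94.1 CPM in the initial WT, 67.7, 68.7 and 72.0 in the final WT, 13.3, 14.4 and 15.2 in the initial KO, and 13.2, 12.6 and 14.3 in the final KO. TBL1X, a transcriptional corepressor subunit, had 72.5 to 85.3 CPM in the initial WT and 58.0 to 67.5 in the final WT, against 11.3 to 13.5 in the 6 KO libraries. LURAP1L had 6.67 to 7.76 CPM in the initial WT and 3.34 to 3.93 in the final WT, against 1.08 to 1.72 in KO. These genes were picked by their likeness, so no test is given.

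The genes next to CHAC1 on chromosome 15 were examined on both sides. On the side before it, DLL4, a Notch ligand 13888 bases away, was lower in KO at both harvests (-0.52, SE 0.155, edgeR adjusted p = 0.0266 initial, and -0.80, adjusted p = 0.00209 final). The initial call of DLL4 was lost without WT initial replicate 1 (adjusted p = 0.0530) or 3 (0.0736) or KO initial replicate 2 (0.0896) or 3 (0.0996). ENSG00000251161, 42624 bases away, was also lower at both (-1.03, adjusted p = 0.000175, and -0.71, adjusted p = 0.00364). VPS18, 48986 bases away, differed by 0.05 and -0.27 (adjusted p = 0.0434), and its final call was lost without any of 9 libraries taken singly (WT initial replicate 3, the 3 WT final, the 3 KO initial, and KO final replicates 1 and 2; adjusted p 0.0540 to 0.203), with RLE size factors (0.0506), without the filter on low counts (0.0641) and with the compared groups alone (0.0852). On the side after it, INO80 (-0.03 and -0.00), CIBAR1P1 (0.21 and 0.24) and CHP1 (0.25 and 0.12) did not pass the test at either harvest, though CHP1 passed at the initial one without WT initial replicate 2 (0.0437) or WT final replicate 1 (0.0485). None of these differences approached the size at CHAC1.

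DPEP1 (ENSG00000015413.9, chromosome 16, 89613308 to 89638456, plus strand), the membrane dipeptidase that completes extracellular glutathione breakdown, was at about 1 CPM in the KO and was 8.24-fold higher in the final than in the initial WT. The counts were 256, 240 and 276 in the initial WT, 2209, 1902 and 1847 in the final WT, 51, 33 and 41 in the initial KO, and 31, 56 and 55 in the final KO. In CPM the WT libraries had 6.25, 5.93 and 6.91 at the initial and 59.9, 49.6 and 47.8 at the final harvest. The KO libraries had 1.29, 0.827 and 1.05 CPM at the initial and 0.780, 1.43 and 1.38 at the final harvest. The final WT was apart from all other libraries, the initial WT was in between, and the KO groups overlapped. Of all genes, 18.4% (initial) and 17.2% (final) had KO wholly below WT, and 10.8% had the final WT wholly above the initial WT.

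KO against WT, the log2 fold change of DPEP1 was -2.59 (SE 0.188, 6.03-fold lower) at the initial harvest and -5.45 (SE 0.178, 43.7-fold lower) at the final harvest. Final against initial it was 3.04 (SE 0.147, 8.24-fold higher) in WT and 0.18 (SE 0.231) in KO. The interaction was -2.86 (SE 0.276). The wider gap at the final harvest therefore came with a higher WT level, at a KO level that differed between harvests by less than its standard error. CHAC1 and DPEP1 were both low in KO at both harvests, and their WT levels moved in opposite directions with culture.

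**Figure D2:**
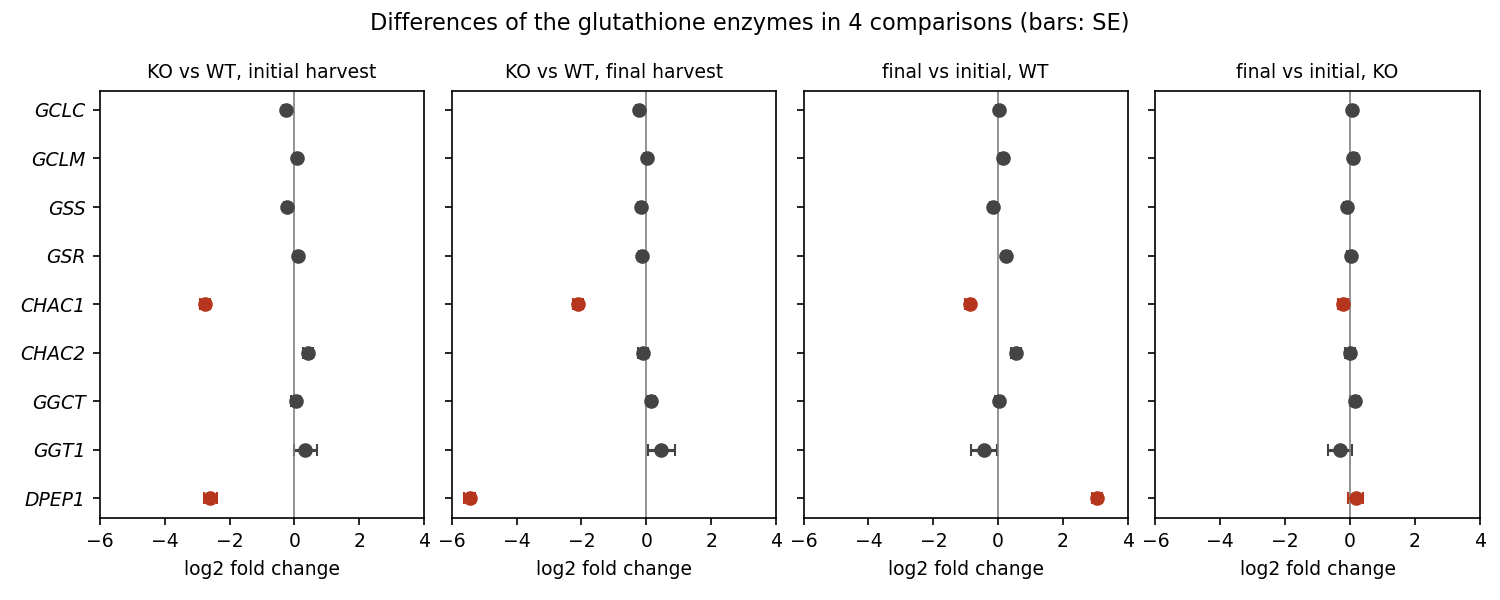
Log2 fold change of each of the 9 genes (x axis) in 4 comparisons (panels), with SE as bars. CHAC1 and DPEP1, in red, are given without a test, and their points lie at -2.75 and -2.59 (initial harvest) and at -2.10 and -5.45 (final harvest), while the other 7 genes lie between -0.44 and 0.54.

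A stretch before an internal annotated start of DPEP1 is shown for a repeat that was seen in it. It is 1 of 4 RefSeq windows of the gene, lies inside the gene's interval, and is printed up to the base before the next GENCODE 29 exon, with AGGAAG in capitals (GRCh38.p14, 238 bases). The motif was chosen after the sequence was seen, so its rarity in other windows follows in part from that choice and is no test. The printed stretch holds it 10 times and the 300-base window 13 times, counted on both strands, against a median of 0 over 35116 windows, of which 1 (0.00285%), this one, held as many.
DPEP1, chr16:89616635-89616872, plus strand: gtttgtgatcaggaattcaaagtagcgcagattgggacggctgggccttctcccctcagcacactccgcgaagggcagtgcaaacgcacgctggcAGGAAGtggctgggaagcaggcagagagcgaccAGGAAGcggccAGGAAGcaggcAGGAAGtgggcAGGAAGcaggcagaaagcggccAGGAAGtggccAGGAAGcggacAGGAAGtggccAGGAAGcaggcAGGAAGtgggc
The counts are per gene and do not show which start was used.

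The other dipeptidases of the family were not expressed at a level that could be tested. DPEP2 had 5 counts or fewer in each library and DPEP3 1 or fewer. The 3 tested genes on either side of DPEP1 were CPNE7, RPL13 and SPG7 before it and CHMP1A, SPATA33 and ENSG00000275734 after it. CPNE7 lies 16061 bases and CHMP1A 2359 bases away. In edgeR 0 of the 6 passed in any of the 5 comparisons, their log2 values were -0.34 to 0.30, and DESeq2 also called 0. At an unadjusted p under 0.05, 1 was higher in the initial KO and 1 had a negative interaction. Among all tested genes, 19.9% (initial) and 18.5% (final) passed in KO against WT. The shares were 6.47% with culture in WT, 1.48% with culture in KO and 1.28% for the interaction. With only 6 genes, the edgeR counts of 0 show no departure from the genes at large. Without WT initial replicate 2, CHMP1A (adjusted p = 0.0294) and SPATA33 (0.0147) were called higher in the initial KO. RPL13, a ribosomal protein gene, had an initial difference of 0.24 (adjusted p = 0.305).

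DNAH2, ACSL5 and PALLD had the patterns nearest to that of DPEP1, with root mean square differences of 0.757, 0.796 and 0.823. This distance is not scaled to the range of a gene. It therefore does not show whether CHAC1 or DPEP1 had the closer matches. ACSL5, a long-chain acyl-CoA synthetase, had 261, 202 and 240 CPM in the initial WT and 583, 474 and 496 in the final WT. It had 33.2, 31.8 and 26.9 CPM in the initial KO and 37.9, 40.8 and 36.0 in the final KO. PALLD, an actin-associated protein, had 197 to 212 CPM in the initial WT, 415 to 482 in the final WT and 29.4 to 33.4 in the 6 KO libraries. DNAH2, a dynein heavy chain, had 4.57 to 5.08, 12.7 to 14.8 and 0.510 to 1.08 CPM in the same order. As with DPEP1, the final WT was the highest group of each gene, and KO was low at both harvests. The genes were picked by this likeness, so the shared pattern follows from the choice and no test is given. Exons of ACSL5 and PALLD overlap genes on the other strand, and the strand setting of the counting is not given in the sources used here.

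The genes of synthesis and reduction (GCLC, GCLM, GSS and GSR) moved little, with log2 values of -0.26 to 0.25 in the 5 comparisons. The genes listed by function also hold CHAC2, GGCT and GGT1, which act in breakdown. Among the 7 genes listed by function, 1 passed the test at the initial harvest (GSS, lower in KO), where 19.9% of all tested genes did. At the final harvest 0 of 7 passed, against 18.5% of all genes. With culture, 1 of 7 passed in WT (CHAC2, higher), where 6.47% of all genes passed and 3.05% were higher. In KO 0 of 7 passed with culture, against 1.48% of all genes (0.837% higher and 0.64% lower). An interaction was called for 0 of 7, against 1.28% of all genes (0.809% positive and 0.476% negative). For the counts of 0, the number at an unadjusted p under 0.05 was 2 (lower) at the final harvest, 0 with culture in KO and 1 (negative) for the interaction, and DESeq2 called 0 in each.

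The median log2 fold change of the 7, KO against WT, was 0.08 (initial) and -0.11 (final), against 0.00 and -0.00 over all genes. With culture it was 0.02 in both genotypes, against 0.01 and 0.00 over all genes. With 1 or 0 calls among 7, these shares show no departure from the genes at large that could be tested.

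GSS (ENSG00000100983.12, chromosome 20, 34928432 to 34956027, minus strand), which adds glycine to complete glutathione, was slightly lower in KO. The initial WT libraries had 141, 159 and 145 CPM and the initial KO libraries 124, 130 and 124 CPM. The final WT had 136, 129 and 132 CPM and the final KO 118, 111 and 124 CPM. The ranges did not overlap at either harvest, as was so for 35.5% (initial) and 33.1% (final) of all genes. The initial difference was -0.24 (SE 0.0743, edgeR adjusted p = 0.0341) and the final one -0.17 (adjusted p = 0.133). The final libraries lay below the initial ones, as for 11.4% of all genes in WT and 11.3% in KO (-0.17 in WT, adjusted p = 0.222, and -0.10 in KO, adjusted p = 0.575), and the interaction was 0.07.

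The call of GSS was near the threshold. Its adjusted p was above 0.05 without WT initial replicate 2 (0.0807) or 3 (0.0665), WT final replicate 2 (0.0587) or 3 (0.0613), KO initial replicate 1 (0.127), 2 (0.0693) or 3 (0.107), or KO final replicate 1 (0.0567) or 3 (0.0501). It was also lost without the filter on low counts (0.121) and with a fit of the compared groups alone (0.0612). KO was the lower genotype in each. Exons of GSS overlap MYH7B on the other strand, which had at most 125 counts against 4370 or more for GSS.

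GCLC (ENSG00000001084.13, chromosome 6, 53497341 to 53616970, minus strand), the catalytic subunit of the rate-limiting step, was at 85.6, 82.5 and 77.7 CPM in the initial WT and 73.7, 86.4 and 89.2 in the final WT. In KO it was at 63.7, 67.9 and 73.1 CPM at the initial and 76.2, 65.2 and 71.0 at the final harvest. The genotypes did not overlap at the initial harvest, a separation also seen downwards for 18.4% of all genes, and overlapped at the final one. The difference was -0.26 (SE 0.0903, edgeR adjusted p = 0.0506, 95% interval -0.44 to -0.09) and then -0.23 (adjusted p = 0.0897), so neither passed. The initial one passed in DESeq2 (adjusted p = 0.0373), with the compared groups alone (0.0464), and without WT final replicate 1 (0.0242) or KO final replicate 2 (0.0486). The final one passed without WT final replicate 1 (0.0247). With culture GCLC differed by 0.02 in WT and 0.05 in KO.

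GCLM (ENSG00000023909.10, chromosome 1, 93885199 to 93909456, minus strand), the modifier subunit that raises the efficiency of GCLC, was at 33.7, 35.1 and 30.8 CPM in the initial WT and 32.5, 35.4 and 37.1 in the initial KO. In the final libraries it was at 33.0, 37.3 and 40.5 CPM in WT and 41.4, 34.5 and 37.0 in KO. All 4 groups overlapped. The difference was 0.08 at the initial harvest (edgeR adjusted p = 0.640, 95% interval -0.11 to 0.27) and 0.03 at the final harvest (adjusted p = 0.886).

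The subunits were also set against each other within each library. The TPM ratio of GCLC to GCLM was 1.60, 1.48 and 1.59 in the initial WT and 1.41, 1.46 and 1.39 in the final WT. It was 1.23, 1.21 and 1.24 in the initial KO and 1.16, 1.19 and 1.21 in the final KO. All 6 KO libraries lay below all 6 WT libraries, with less spread within groups than either gene showed alone. The ratio was chosen after its values were seen and was not tested.

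**Figure D3:**
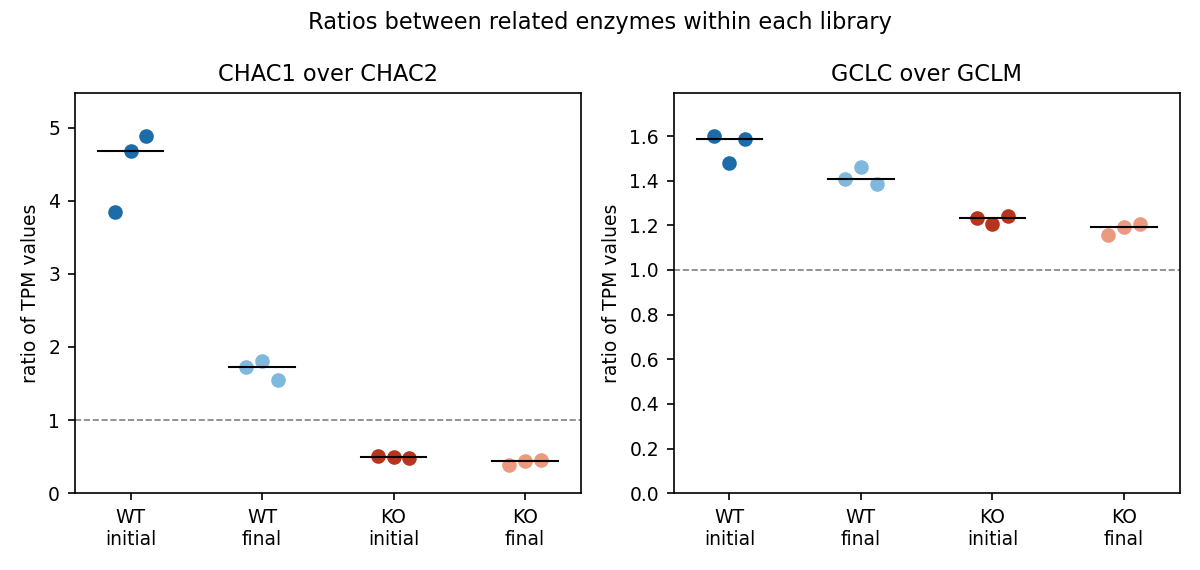
Ratios of TPM values within each library (y axis, from 0) for CHAC1 over CHAC2 and for GCLC over GCLM in the 4 groups (x axis), with 1 point per library, the group median as a black line and a ratio of 1 as a dashed line. CHAC1 over CHAC2 lies between 1.55 and 4.88 in WT and between 0.385 and 0.515 in KO, and GCLC over GCLM between 1.39 and 1.60 in WT and between 1.16 and 1.24 in KO.

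GSR (ENSG00000104687.14, chromosome 8, 30678066 to 30727846, minus strand), the reductase that recycles glutathione, had the highest level per length of the 9. It was at 161, 206 and 175 CPM in the initial WT, 191, 227 and 229 in the final WT, 179, 204 and 201 in the initial KO and 205, 174 and 212 in the final KO. The genotypes overlapped at both harvests. The differences were 0.11 (edgeR adjusted p = 0.544) and -0.13 (adjusted p = 0.463), and with culture 0.25 in WT (adjusted p = 0.194) and 0.02 in KO.

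GGCT (ENSG00000006625.18, chromosome 7, 30496621 to 30504841, minus strand), the cyclotransferase for other gamma-glutamyl peptides, was at 16.8 to 23.7 CPM in the 6 WT libraries and 19.5 to 23.6 in the 6 KO libraries. KO differed from WT by 0.03 (edgeR adjusted p = 0.888) and 0.16 (adjusted p = 0.459). The range of GGCT in KO lay within that in WT.

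GGT1 (ENSG00000100031.19, chromosome 22, 24594811 to 24629005, plus strand), the surface enzyme that starts extracellular breakdown, was barely detected. Its counts were 8, 12 and 9 in the initial WT, 8, 6 and 6 in the final WT, 17, 12 and 7 in the initial KO and 7, 10 and 12 in the final KO. At this depth a difference was not detectable: the initial estimate was 0.34 (edgeR adjusted p = 0.575, 95% interval -0.38 to 1.06) and the final one 0.47 (adjusted p = 0.5). GGT1 has near-identical copies and an exon shared with ENSG00000286070, so its counts are uncertain.

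GGT7 and GGT5 belong to the same family. GGT7, a family member without a settled enzymatic role, was at 31.4 to 41.8 CPM in WT and 19.4 to 29.9 in KO. It was lower in KO by edgeR at the initial (-0.82, adjusted p = 0.000295) and the final harvest (-0.47, adjusted p = 0.0185). The final call was lost without WT final replicate 1 (0.0808), KO final replicate 1 (0.0853) or KO final replicate 3 (0.0656). GGT5, which acts on glutathione conjugates such as leukotriene C4, was at 5.49, 3.46 and 5.28 CPM in the initial WT and 0.404, 0.426 and 0.434 in the initial KO. In the final WT it was at 1.52, 0.886 and 0.802 CPM and in the final KO at 0.377, 0.230 and 0.402.

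GGT5 was 11.2-fold lower in the initial KO (log2 fold change -3.48, SE 0.266, edgeR adjusted p = 1.11e-07) and was also lower in the final KO (-1.65, adjusted p = 0.00173). In WT it fell with culture (-2.15, adjusted p = 3.44e-05), while in KO the difference was -0.32 (adjusted p = 0.745). Its interaction of 1.83 (SE 0.457) had an adjusted p of 0.0696 in edgeR and of 0.00614 in DESeq2, and passed in edgeR without the filter on low counts (0.0012) and without WT initial replicate 2 (0.0153) or WT final replicate 1 (0.0156). The remaining paralogs were too low to test: GGT6 had at most 13 counts, GGTLC1 at most 1 and GGTLC2 0 in all libraries.

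Per length, the order of the 9 genes changed only around CHAC1 and DPEP1. The order within a group depends on the gene lengths used. In the initial WT it was GSR (190 TPM), GSS (90.9), CHAC1 (78.9 ± 18.7, SD, n = 3), GGCT (48.3), GCLC (35.9), GCLM (23.1), CHAC2 (17.6), DPEP1 (8.77) and GGT1 (0.206). GSS and CHAC1 overlapped, as did GCLM and CHAC2. In the final WT DPEP1 stood at 59.6 ± 2.47 TPM, behind GSR (189) and GSS (67.2). GGCT (40.9), CHAC1 (35.9), GCLC (30.4), GCLM (21.4) and CHAC2 (21.4) followed there, each overlapping the next.

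In the initial KO the order was GSR (194 TPM), GSS (73.4), GGCT (47.1), GCLC (28.4), GCLM (23.2), CHAC2 (22.5), CHAC1 (11.1), DPEP1 (1.39) and GGT1 (0.249), where only GCLM and CHAC2 overlapped as neighbours. The final KO had the same order, with CHAC1 at 9.09 and DPEP1 at 1.5 TPM. CHAC1 thus moved from among the most abundant enzymes of the set in the initial WT to below CHAC2 in KO.

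**Figure D4:**
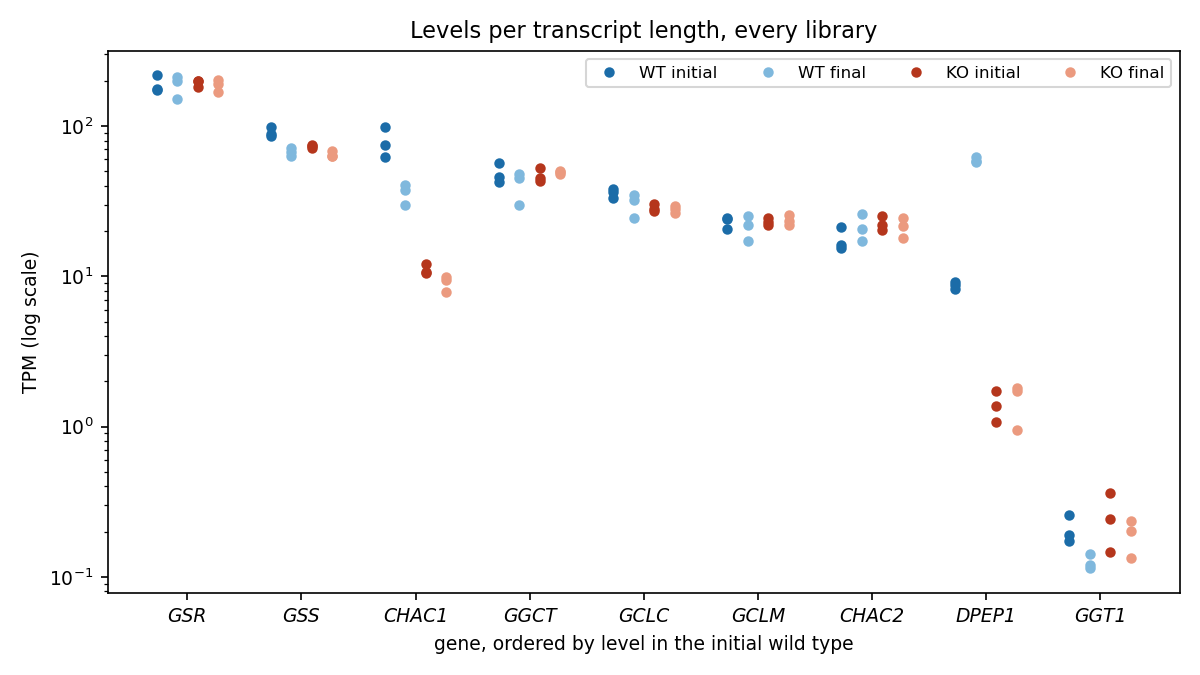
Level per length in TPM (y axis, log scale) of the 9 genes, ordered by their mean in the initial WT (x axis), with 1 point per library coloured by group. The red KO points of CHAC1 (7.92 to 12.1 TPM) and DPEP1 (0.949 to 1.82 TPM) lie below the blue WT points, and the groups of the other genes lie close together.

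The pathways around these enzymes were described by 7 lists. The first held 13 genes of the ATF4 axis, CHAC1 left out. At the initial harvest 9 of the 13 were lower in KO and 1 higher, with a median of -0.64, and at the final harvest 5 were lower and 0 higher, with a median of -0.57. Of all genes, 11.3% were lower and 8.55% higher at the initial harvest, and 10.2% and 8.38% at the final one. For higher genes at the final harvest the number at an unadjusted p under 0.05 and in DESeq2 was also 0. With culture 6 of the 13 were lower in WT and 1 in KO, against 3.42% and 0.64% of all genes. Without WT initial replicate 2, 8 were lower at the final harvest. Without WT initial replicate 1 or 3 or KO initial replicate 2 or 3, 0 were higher at the initial one, and without KO initial replicate 1 or 3 or any 1 of the 3 KO final libraries, 0 fell in KO with culture.

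TRIB3, a pseudokinase that restrains ATF4, was at 115, 174 and 129 CPM in the initial WT and 42.1, 44.1 and 43.9 in the initial KO. It was lower in KO at both harvests (-1.68, edgeR adjusted p = 8.92e-08, and -1.17, adjusted p = 4.1e-06). DDIT4, an inhibitor of mTORC1, was also lower at both (-1.46, adjusted p = 2.93e-07, and -1.0, adjusted p = 1.65e-05). Both fell in WT with culture (TRIB3 -0.58, adjusted p = 0.00819, and DDIT4 -0.72, adjusted p = 0.00153), as CHAC1 was.

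Of the genes with a TGATGNAA site shown above, ASNS, CEBPG and ATF3 were named after their values were seen. ASNS was lower at both harvests (-1.85, adjusted p = 5.03e-07, and -1.05, adjusted p = 0.00025) and CEBPG only passed at the initial one (-0.44, adjusted p = 0.00167, then -0.13, adjusted p = 0.347). ATF3 did not pass (-0.64, adjusted p = 0.104, and -0.76, adjusted p = 0.0592), but did so at the initial harvest without WT final replicate 1 (0.0321) or with the compared groups alone (0.0141), and at the final one without WT initial replicate 2 (0.0478), WT final replicate 3 (0.0189) or KO final replicate 1 (0.0186). The transcript of ATF4 itself differed by -0.30 (adjusted p = 0.0436) and -0.27 (adjusted p = 0.0729). The first call was lost without any of 9 libraries taken singly (WT initial replicates 2 and 3, WT final replicates 2 and 3, the 3 KO initial, and KO final replicates 1 and 3; adjusted p 0.0531 to 0.146) and with the compared groups alone (0.0681). The second passed without WT initial replicate 1 (0.0406) or 2 (0.0217) and without the filter on low counts (0.0497).

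The substrates of synthesis reach the cell through transporters. Of 12 tested genes of substrate supply (13 listed, CBS too low), 8 were lower and 1 higher in the initial KO, with a median of -0.56, and 8 were lower and 0 higher in the final KO, with a median of -0.44. There DESeq2 and an unadjusted p under 0.05 also gave 0 higher. Of all genes, 11.3% were lower and 8.55% higher at the initial harvest, and 10.2% and 8.38% at the final one. The 1 higher gene, GLUL, was lost without WT initial replicate 3, WT final replicate 2 or 3, or any 1 of the 3 KO initial libraries, and without the filter on low counts. SLC7A11, the cystine importer, had 417, 240 and 274 CPM in the initial WT and 108, 102 and 95 in the initial KO. In the final WT it had 240, 219 and 228 CPM and in the final KO 141, 149 and 108. It was lower at both harvests (-1.61, SE 0.164, edgeR adjusted p = 2.96e-06, and -0.79, adjusted p = 0.00232), with no overlap between genotypes. Such a separation downwards was seen for 18.4% (initial) and 17.2% (final) of all genes.

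SLC1A4, a transporter of neutral amino acids, was likewise lower at both harvests (-1.5, adjusted p = 4.2e-08, and -0.91, adjusted p = 8.52e-06). SLC1A1, a transporter of glutamate and cysteine, differed by -0.81 (adjusted p = 3.31e-05) and -0.63 (adjusted p = 0.000369). SLC1A5, the glutamine transporter with a site shown above, was lower at both (-0.63, adjusted p = 0.0014, and -0.54, adjusted p = 0.0045).

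The NRF2 axis, of which 19 of 20 genes were tested, was mixed at the initial harvest, with 4 lower and 2 higher in KO (median -0.05), or 1 higher without WT initial replicate 1 or 3 or KO initial replicate 2 or 3. At the final harvest 5 were lower and 0 higher (median -0.22), and 0 were higher in DESeq2 or at an unadjusted p under 0.05. The shares over all genes were 11.3% lower and 8.55% higher (initial) and 10.2% lower and 8.38% higher (final). NFE2L2, the gene of NRF2 itself, was lower at both harvests (-0.40, edgeR adjusted p = 0.00351, and -0.26, adjusted p = 0.0435). KEAP1 was higher at the initial harvest (0.39, adjusted p = 0.0246) and not at the final one (-0.02, adjusted p = 0.943). How the NFE2L2 and KEAP1 calls depend on single libraries was not examined. TXNRD1, thioredoxin reductase, was lower at both (-0.47, adjusted p = 0.00274, and -0.46, adjusted p = 0.00291). MAFK, a small MAF partner of NRF2, was higher at the initial harvest (0.55, adjusted p = 0.00335) and not at the final one (0.15, adjusted p = 0.431). HMOX1, heme oxygenase, rose in WT with culture (0.66, adjusted p = 0.00324) and was lower in the final KO (-0.71, adjusted p = 0.000523).

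OSGIN1, an oxidative stress-induced growth inhibitor, had 18.4, 24.0 and 20.0 CPM in the initial WT, 19.8, 18.7 and 17.4 in the final WT, 19.9, 21.5 and 20.5 in the initial KO, and 10.4, 9.77 and 11.0 in the final KO. The final KO was apart from the other groups. Of all genes, 17.2% had the final KO wholly below the final WT and 11.3% wholly below the initial KO. KO against WT, OSGIN1 differed by -0.01 at the initial harvest (adjusted p = 0.946) and by -0.84 at the final one (adjusted p = 2.51e-05), and its interaction passed the test (-0.83, SE 0.146, edgeR adjusted p = 0.00786). An exon of OSGIN1 overlaps MLYCD on the same strand.

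Of 9 tested genes of gamma-glutamyl and dipeptide breakdown (14 listed), 3 were lower and 0 higher in the initial KO (median -0.09; unadjusted p under 0.05, 1 higher; DESeq2, 0; without WT initial replicate 1, 1), and 3 lower and 1 higher in the final KO (median -0.19). Without WT final replicate 1, KO final replicate 1 or KO final replicate 3, 1 was lower at the final harvest. Among all genes 11.3% (initial) and 10.2% (final) were lower, and 8.55% and 8.38% higher. The higher one was CNDP1, a carnosine dipeptidase with 2 to 16 counts per library (2.01, adjusted p = 0.00589).

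Peroxidases and glutaredoxins (13 tested of 16) gave 2 lower and 1 higher at the initial harvest, then 1 lower and 0 higher at the final one, where DESeq2 and an unadjusted p under 0.05 also gave 0 higher. Their medians were 0.10 and -0.01. These counts stand beside 11.3% lower and 8.55% higher of all genes at the initial harvest, and 10.2% and 8.38% at the final one. Without WT initial replicate 1 or 3 or any 1 of the 3 KO initial libraries 0 were higher at the initial harvest, and without WT initial replicate 2, 2 were. GLRX, a cytosolic glutaredoxin that removes glutathione from proteins, was lower at both (-0.81, adjusted p = 2.56e-05, and -0.73, adjusted p = 6.8e-05). GPX8, a peroxidase of the endoplasmic reticulum, was lower at the initial harvest (-0.32, adjusted p = 0.00829).

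Of 17 tested glutathione S-transferase genes (24 in the table), 5 were lower and 1 higher in the initial KO and 4 lower and 0 higher in the final KO (unadjusted p under 0.05, 0 higher; DESeq2, 0), with medians of -0.05 and -0.13. The shares of all genes were 11.3% lower and 8.55% higher (initial), and 10.2% and 8.38% (final). Without WT initial replicate 1 or 3, KO initial replicate 2 or 3, or KO final replicate 1, 3 were lower at the initial harvest, and without WT final replicate 1, 2 were lower at the final one. The 1 higher gene, GSTT2B, was lost in DESeq2, with the compared groups alone and without WT initial replicate 3 or KO initial replicate 1 or 3. GSTM4 was lower at both (-0.68, adjusted p = 4.76e-05, and -0.45, adjusted p = 0.00212), and an exon of it overlaps GSTM2. The near-identical GSTA1 and GSTA2 had 8 to 31 counts in each WT library and 0 to 10 in each KO library, so reads may be split between them.

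Of 9 genes of glutathione transport, 1 was lower in the initial KO and 2 in the final KO, with 0 higher at either, also in DESeq2 and at an unadjusted p under 0.05, and medians of 0.01 and -0.00. Without WT initial replicate 2, 1 was higher at the initial harvest. Over all genes the shares were 11.3% lower and 8.55% higher (initial), and 10.2% and 8.38% (final), so these counts show no departure from the genes at large. ABCC3, an exporter of conjugates, was lower at both (-0.82, adjusted p = 0.00113, and -0.60, adjusted p = 0.0108), the final call being lost without KO final replicate 1 (0.0532). ABCC10, a related exporter, differed by -0.37 at the final harvest (adjusted p = 0.0348), a call lost without WT final replicate 1 (0.166), KO final replicate 1 (0.131) or KO final replicate 3 (0.0857).

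**Figure D5:**
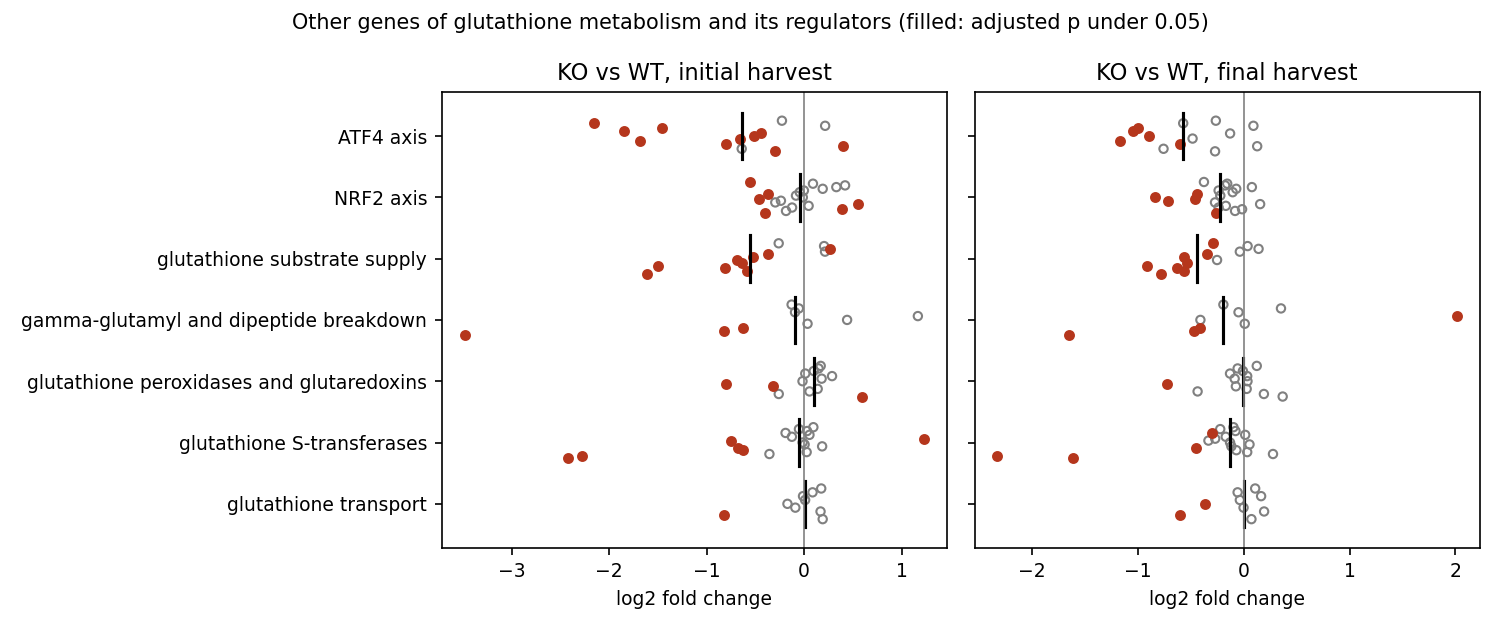
Log2 fold change, KO against WT (x axis), of each tested gene of the 7 lists (rows) at the initial and final harvest (panels), filled red where the edgeR adjusted p is under 0.05 and open grey otherwise, with the list median as a black line. The medians of the ATF4 axis (-0.64 and -0.57) and of substrate supply (-0.56 and -0.44) lie left of 0, and those of the other lists between -0.22 and 0.10.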

How the data were processed

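The authors deposited 1 table of raw counts per gene, laid out as featureCounts writes it per the file headers, without normalization. The submitters' processing notes name STAR, featureCounts, Subread and hg38. Versions, the annotation release and the strand setting are not given in the sources used here. Gene length and coordinates came from the table, and 5 lines of 1 broken gene were left out. Tests used edgeR 4.0.16 under R 4.3.3, with limma 3.58.1 loaded, TMM factors, filterByExpr by group and 1 robust quasi-likelihood model of all 12 libraries, adjusted by Benjamini-Hochberg over all 18289 genes tested and called at an adjusted p under 0.05. The procedure was tested on simulated data. Alternatives were DESeq2 1.42.0, RLE size factors, no filter on low counts, the compared groups alone, a replicate block and each library left out. TPM was computed from counts and gene length, with no test. Intervals are 95% intervals of log2 fold changes.

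The genes and lists were chosen with earlier results of these data known. Named beside the 9 genes were, per list, up to 2 genes with the smallest adjusted p under 0.05 at each harvest, the CHAC, DPEP and GGT paralogs, the 3 genes most like CHAC1 and DPEP1 and the 3 tested neighbours on each side. ASNS, CEBPG, ATF3, ATF4, SLC1A5, NFE2L2, KEAP1, GLUL and GSTT2B were named outside this rule, after their values were seen. GSTT1 was not used here.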

Additional observations from a re-analysis of the deposited data

Results flagged for a closer look

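The genotype difference of DPEP1 changed between harvests by -2.86 on the log2 scale (the interaction; SE 0.276). DPEP1 was listed because of its values, so this carries no p. DNAH2 (-1.72), ACSL5 (-0.82) and PALLD (-1.16) were picked for their likeness to DPEP1, so their negative interactions follow from that choice and carry no p either. OSGIN1 had an interaction of -0.83 (edgeR adjusted p = 0.00786), with the final KO as the low group.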

How the results depend on the processing

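No result reversed under the alternatives run. For the 9 genes, 723 values stayed as called (for CHAC1 and DPEP1, within the spread of replicates), 22 calls were lost and 9 gained. Over the alternatives, the log2 fold change of CHAC1 ran from -2.91 to -2.56 at the initial and from -2.17 to -1.99 at the final harvest, and that of DPEP1 from -2.76 to -2.44 and from -5.60 to -5.22. Calls among the 7 genes listed by function at the initial harvest went from 1 to 0 with a replicate block and to 3 with DESeq2, and in WT culture from 1 to 0 with a replicate block and to 0 with the compared groups alone. With the block the adjusted p was 0.0557 for GSS (initial) and 0.0586 for CHAC2 (WT culture), both lost, and 0.0923 for CHAC2 with the compared groups alone. The block also ended the calls of ATF4 (initial, 0.0586), VPS18 (final, 0.0641), GSTA1 (final, 0.0632) and GLUL (initial), and made calls of ATF3 (0.0287 initial, 0.0133 final) and of the GGT5 interaction (0.0293). The final call of GSTA1, lower in KO, was also lost in DESeq2 (adjusted p = 0.068). It was lost as well without WT initial replicate 3, KO initial replicate 3, or any 1 of the 3 WT final or 3 KO final libraries (0.0624 to 0.148). Same-numbered libraries, each taken as its difference from the group mean, correlated at -0.01 to 0.20 (initial), -0.12 to 0.10 (final), 0.01 to 0.13 (WT culture) and -0.13 to 0.01 (KO culture). With 3 libraries a group, these low values cannot settle whether replicate numbers pair the samples. Over all genes, WT culture gave 578 calls with the compared groups alone, against 1183. KO culture gave 535 with DESeq2, 484 without a filter and 728 with the compared groups alone, against 270, and the interaction 450 with DESeq2 and 423 without a filter, against 235. The cause was not tested.

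Leaving out each library in turn gave 2423 (without KO initial replicate 2) to 4615 (without WT initial replicate 2) calls at the initial harvest, 2561 to 3895 at the final one, 627 to 1399 in WT culture, 94 to 463 in KO culture and 124 to 444 for the interaction. Among the 7 genes it gave 0 to 3, 0 to 1, 0 to 1, 0 to 0 and 0 to 0 calls. With 3 libraries a group, differences of the size seen at GSS and GCLC lie at the limit, and the counts of GGT1 are too few to show a change. The labels call the replicates biological but name no separate cultures, so p-values measure only the spread between these samples, which may be technical.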
